A study of Mus musculus with 4 samples.

Results

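The Hedgehog co-receptors and transducers described here are 9 genes that act around SHH and the GLI factors: *Hhat*, *Disp1*, *Boc*, *Cdon*, *Gas1*, *Hhip*, *Smo*, *Sufu* and *Kif7*. They were picked by symbol, leaving aside *Shh*, *Ptch1* and the *Gli* genes, and are 9 of the 13577 genes for which values were deposited. The nasal process (NP) of E11.5 mouse embryos was profiled in bulk by RNA-Seq, with 2 libraries each under the titles control and ca-*Acvr1(A11)* mutant, to see which genes respond when BMP/Smad signaling is raised in neural crest cells. The mutants carried 1 copy of a floxed CAG transgene for constitutively active ACVR1, a type I BMP receptor (line A11), together with *P0-Cre*, and the controls carried *P0-Cre* without the transgene. *P0-Cre* acts in neural crest cells, so NP tissue also holds cells in which the transgene stays off. The mice were of mixed background and both sexes, and embryos were age matched by somites. The sources used here do not say how many embryos a library pools or whether libraries came from separate litters, so p-values measure the spread between these libraries only.

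The labels contradict each other. Libraries with control titles have the transgene in their genotype entry, while those with mutant titles have *P0-Cre* alone. Groups are named here by title, and each sign given here would flip if instead the entered genotypes held. *Acvr1* measured 21.5 and 23.1 CPM (reads scaled to library size) under the control title against 24.1 and 12.6 CPM under the mutant title, so the groups overlapped (log2 fold change −0.33, 95% interval −0.90 to 0.24, adjusted p = 0.786 from limma, n = 2 per group). Its log2 fold change was 0.11 without ca-*Acvr1(A11)* replicate 2 and −0.77 without replicate 1. The paper reports raised *Acvr1* mRNA in mutant NPs by in situ hybridization. An increase was not seen here in the means, which were 22.3 CPM under the control title and 18.4 CPM under the mutant title. Whether the transgene's transcript ends in the 3′ sequence of mouse *Acvr1* is not given in the sources used here. *Pdgfra*, which the paper reports as reduced in mutants at both RNA and protein level, was lower under the mutant title. Its log2 fold change was −2.60 as deposited and −1.45 with the nearest values, by round shifts of CPM, that fit whole reads (adjusted p = 6.81e-09 and 4.43e-05 from limma). This is the paper's direction if the titles hold and the reverse if the entered genotypes hold. Which label is right was not tested.

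Hedgehog ligands are given a palmitate and released from the cells that make them, then bind the receptor Patched on receiving cells with the help of co-receptors. Binding lifts the block on Smoothened, which acts at the primary cilium to free the GLI transcription factors from SUFU and from cleavage into repressors. In the embryonic face, Hedgehog signaling from the ectoderm and forebrain to the neural crest mesenchyme sets midfacial width and outgrowth. Combined loss of the co-receptors *Boc*, *Cdon* and *Gas1* in mice gives midline defects.

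The libraries held 1956831 and 2252586 reads in control and 2408827 and 2137027 reads in ca-*Acvr1(A11)*, replicates 1 and 2, as recovered from the step between values. One read was thus worth between 0.415 and 0.511 CPM. Libraries were primed at the poly(A) tail (QuantSeq), so a transcript's reads lie at its 3′ end whatever its length, and CPM can be compared between genes without a length correction. All values of the 9 genes were whole reads. *Gas1* rested on 1893 reads over the 4 libraries and *Cdon* on 864, but *Hhat* on 39, *Kif7* on 43 and *Hhip* on 69. Intervals for single libraries are exact 95% Poisson intervals and cover counting error only.

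In control NP tissues the levels ran from *Gas1* at 269.5 ± 78.4 CPM (SD, n = 2) and *Cdon* at 116.7 ± 6.90 CPM, through *Sufu*, *Boc* and *Smo*, to *Kif7* at 5.73 ± 0.569 CPM. The control values of *Gas1* and *Cdon* did not overlap with each other or with those of the next gene in this order. Those of *Sufu* and *Boc* overlapped, as did each neighboring pair among *Disp1*, *Hhip*, *Hhat* and *Kif7*. The order was the same in ca-*Acvr1(A11)* tissues except that *Hhat* and *Kif7* changed places. *Gas1* supplied 56.8% and 68.9% of the summed CPM of the 3 co-receptors in control and 63.3% and 53.7% in ca-*Acvr1(A11)* libraries, so it was the most abundant co-receptor in each library.

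**Figure D1:**
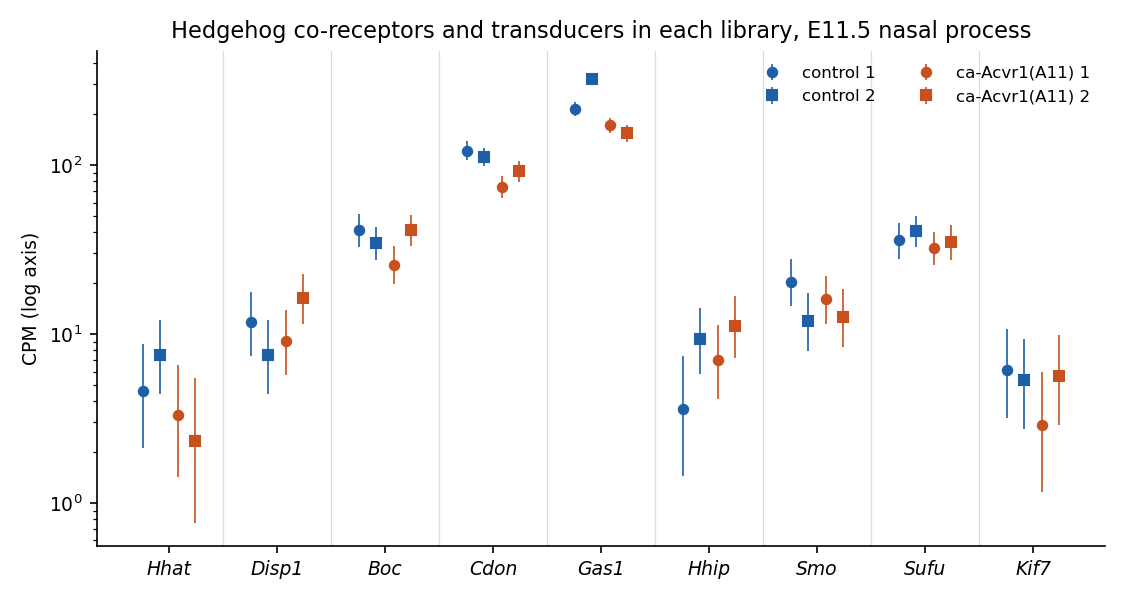
CPM of each of the 9 genes (log axis) in the 2 control (blue) and 2 ca-*Acvr1(A11)* (orange) libraries, with exact 95% Poisson intervals for counting error. *Gas1* lies at 214 and 325 CPM for control against 172 and 154 CPM for ca-*Acvr1(A11)*, and the intervals of *Hhat*, *Hhip* and *Kif7* are the widest.

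Of the 9 genes, 1 passed an adjusted p under 0.05 from limma, the co-receptor *Gas1*, which was lower in the ca-*Acvr1(A11)* libraries. Among all 12462 genes tested the share called was 0.899%, and the share called lower was 0.594%. At an unadjusted p under 0.05, 3 of the 9 were lower (*Gas1*, *Cdon* and *Hhat*) and 0 were higher, where the shares of all genes were 4.12% lower and 5.42% higher. For 4 of the 9 (*Gas1*, *Cdon*, *Hhat* and *Sufu*) both ca-*Acvr1(A11)* libraries lay under both control libraries, as they did for 16.8% of all genes. For 0 of the 9 both lay above, against 21.9% of all genes. The median log2 fold change of the 9 was −0.21, with 7 below 0 and 2 above, beside a median of 0.03 over all genes tested. It was −0.40 without control replicate 2, −0.54 without ca-*Acvr1(A11)* replicate 2 and −0.12 without ca-*Acvr1(A11)* replicate 1. On recovered reads the edgeR quasi-likelihood test called *Gas1* alone of the 9 (1.14% of all genes), limma-voom called *Gas1* alone (1.00%), and DESeq2 called 0 of the 9 (0.265% of all genes), with 2 of the 9 and 2.90% of all genes at an unadjusted p under 0.05. An exact permutation test of 2 libraries against 2 cannot go below p = 0.333, so each call rests on the spread that these tools pool across genes.

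**Figure D2:**
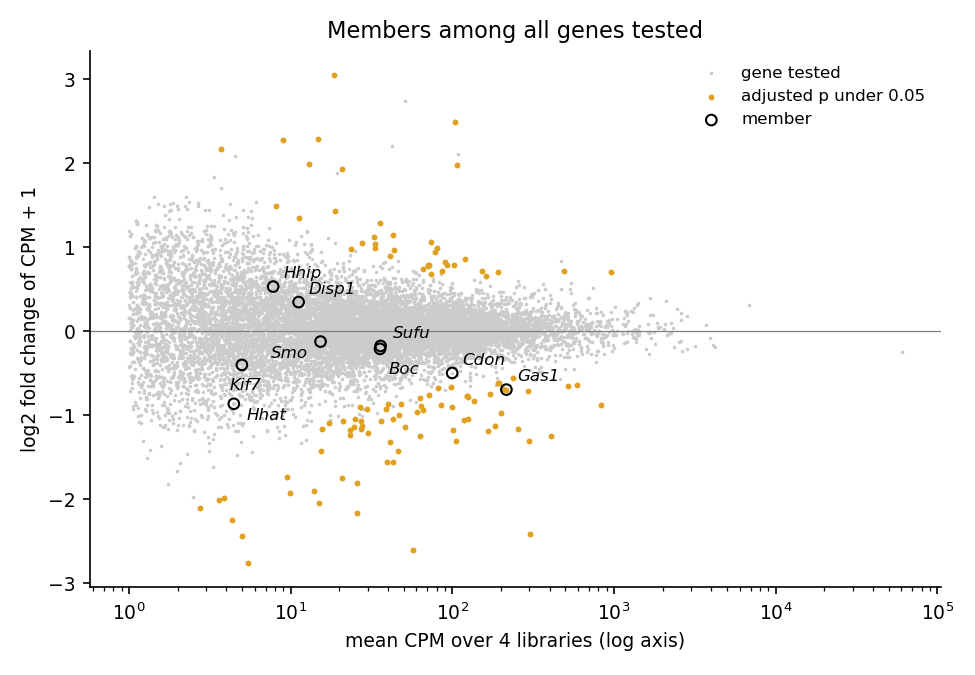
Log2 fold change (ca-*Acvr1(A11)* over control, of CPM + 1) against mean CPM over the 4 libraries (log axis) for the 12462 genes tested (grey), those with an adjusted p under 0.05 from limma (yellow) and the 9 genes described here (circles). *Gas1* sits among the called genes at −0.70, and the other 8 lie within the grey cloud.

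*Hhat* encodes the acyltransferase that adds palmitate to Hedgehog ligands. It was at 4.60 and 7.55 CPM (control) against 3.32 and 2.34 CPM (ca-*Acvr1(A11)*). The groups did not overlap, but the values stand for 9 and 17 reads against 8 and 5, and the Poisson interval of control replicate 1 (2.10 to 8.73 CPM) takes in every other library. At a log2 fold change of −0.86 (95% interval −1.72 to −0.01), *Hhat* missed the threshold (limma adjusted p = 0.515), and leaving out a library moved it to between −1.17 (control replicate 1) and −0.56 (control replicate 2).

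*Disp1* encodes the transporter-like protein that releases lipid-bearing ligand from the cell. Its values were 11.7 and 7.55 CPM (control) against 9.13 and 16.4 CPM (ca-*Acvr1(A11)*). Each group held a value between those of the other group, and ca-*Acvr1(A11)* replicate 2 was the highest. Its log2 fold change of 0.35 (95% interval −0.34 to 1.03, adjusted p = 0.830 from limma) was smaller than the log2 gaps of 0.58 and 0.78 between the replicates of control and of ca-*Acvr1(A11)*. Leaving out libraries singly gave *Disp1* values from −0.04 (ca-*Acvr1(A11)* replicate 2) to 0.74 (replicate 1).

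The 3 co-receptors, cell surface proteins that bind the ligand beside Patched, summed to 377 and 471 CPM (control) against 271 and 287 CPM (ca-*Acvr1(A11)*). *Gas1*, which encodes a GPI-anchored co-receptor, was at 214 and 325 CPM (control) against 172 and 154 CPM (ca-*Acvr1(A11)*). Both ca-*Acvr1(A11)* values lay under both control values, and the controls were further apart from each other than the mutants, with log2 gaps of 0.60 and 0.15. The log2 fold change was −0.70 (standard error 0.16, 95% interval −1.03 to −0.36, adjusted p = 0.0303 from limma, n = 2 per group), and the ca-*Acvr1(A11)* mean was 60.4% of the control mean.

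The call of *Gas1* was made under 12 of 17 alternatives, of which the one with whole-read values leaves the values of this gene unchanged. It depended on single libraries: without control replicate 2, the highest, the log2 fold change was −0.40 (adjusted p = 0.436 from limma), and without ca-*Acvr1(A11)* replicate 2 it was −0.62 (0.150 from limma). It was also lost with a pseudocount of 0.1 (0.0577 from limma), without the mean-variance trend in limma (0.583) and with DESeq2 (0.101). Without the trend 0 of all genes tested were called. In tissue measured as bulk, fewer cells that express a gene and less of its RNA per cell cannot be told apart.

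*Cdon*, an immunoglobulin superfamily co-receptor, was at 122 and 112 CPM (control) against 73.9 and 91.7 CPM (ca-*Acvr1(A11)*). The groups did not overlap, and their means of 116.7 ± 6.90 and 82.8 ± 12.6 CPM (SD, n = 2 each) differed by more than the spread within either group. The log2 fold change was −0.50 (95% interval −0.83 to −0.17), yet over all genes it missed the threshold (adjusted p = 0.211 from limma), although its unadjusted p was under 0.05. *Cdon* was called under 0 of 17 alternatives, edgeR, limma-voom and DESeq2 among them.

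*Boc*, the paralog of *Cdon* in the same family, was at 41.4 and 34.6 CPM (control) against 25.7 and 41.2 CPM (ca-*Acvr1(A11)*). The groups overlapped, with ca-*Acvr1(A11)* replicate 1 low and replicate 2 beside the higher control. Its log2 fold change of −0.21 (95% interval −0.67 to 0.25, adjusted p = 0.848 from limma) became 0.12 without ca-*Acvr1(A11)* replicate 1 and −0.54 without replicate 2. Whether *Gas1* and *Cdon* differed from *Boc* in their change was not tested.

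RefSeq start-site windows of *Gas1* and *Cdon*, the pair of co-receptors whose groups did not overlap, are shown to set the called gene beside the one that missed the threshold. RefSeq windows of 300 bases (250 before to 50 after a start site, build GRCm38.p6) matched 8 of the 9 genes, all but *Boc*. They were searched on both strands for a GLI motif, GACCACCCA, and for a GC-rich SMAD motif, GGCGCC, which reads the same on both strands; the letters found are in capitals. The *Gas1* window is chr13:60177486-60177785 on the minus strand and the *Cdon* window chr9:35451826-35452125 on the plus strand. The *Gas1* start lies outside the GENCODE gene model, upstream of it. The GENCODE model of *Cdon* begins at 35421128, so the *Cdon* window lies well inside that gene and not at its 5′ end. The windows are thus not equivalent promoters, and their contents are described without comparing the genes.
Gas1: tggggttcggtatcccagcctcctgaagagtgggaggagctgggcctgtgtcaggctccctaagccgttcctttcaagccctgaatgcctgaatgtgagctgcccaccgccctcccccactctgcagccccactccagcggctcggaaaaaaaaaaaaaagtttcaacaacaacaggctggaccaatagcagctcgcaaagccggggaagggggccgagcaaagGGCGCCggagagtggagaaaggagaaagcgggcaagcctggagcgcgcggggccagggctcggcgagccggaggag
Cdon: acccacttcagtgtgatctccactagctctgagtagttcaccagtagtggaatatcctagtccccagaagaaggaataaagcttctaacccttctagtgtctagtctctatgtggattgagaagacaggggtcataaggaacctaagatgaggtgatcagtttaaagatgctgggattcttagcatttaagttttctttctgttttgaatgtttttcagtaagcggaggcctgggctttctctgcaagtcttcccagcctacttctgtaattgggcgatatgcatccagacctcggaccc
GACCACCCA was in 0 of the 8 genes' windows and in 0.253% of all 32851 windows. GGCGCC was in the windows of *Gas1*, *Kif7* and *Sufu*, 3 of the 8, and in 11.9% of all windows. In *Gas1* it began 26 bases before the RefSeq start site, at position −26. The *Gas1* window was 62.3% G and C and the *Cdon* window 44.7%. A match marks letters in a window and not a bound site.

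*Gas1* (Entrez 14451) lies at chr13:60174405-60177365 on the minus strand of GRCm38, the assembly that mm10 names, in 1 exon of 2961 bases. Its first 684 bases share sequence, on the opposite strand, with the lincRNA gene *Gm48488*, which starts 2277 bases from the 3′ end of *Gas1*. *Cdon* (Entrez 57810) is at chr9:35421128-35507652 on the plus strand, and no other annotated gene overlaps its last exon of 3596 bases. *Boc* (Entrez 117606) is at chr16:44485049-44558897 on the minus strand.

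Of the 9 genes, 4 have a last exon that overlaps another gene on the opposite strand. Besides *Gas1* these are *Hhat* (Entrez 226861, chr1:192496711-192771223, minus strand), whose last exon lies within *Kcnh1*, *Kif7* (Entrez 16576, chr7:79698098-79715720, minus strand), whose last 51 bases overlap *Ticrr*, and *Hhip* (Entrez 15245, chr8:79965851-80058006, minus strand), which overlaps a short RNA gene. No gene on the opposite strand overlaps the last exon of *Disp1* (Entrez 68897, chr1:183086266-183221522, minus strand), *Smo* (Entrez 319757, chr6:29735503-29761365, plus strand) or *Sufu* (Entrez 24069, chr19:46396896-46488804, plus strand). The overlaps of *Gas1* and *Hhip* begin 2277 and 4539 bases from their 3′ ends, away from where reads gather, while those of *Hhat* and *Kif7* reach the 3′ end itself. The 3′ end of *Ticrr* lies within the last exon of *Kif7*, but that of *Kcnh1* lies outside the last exon of *Hhat*. The strand setting of the counting is not given in the sources used here, so for *Hhat* and *Kif7* reads from the opposite strand cannot be told apart.

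*Hhip* encodes a membrane protein that binds Hedgehog ligands as a decoy, and it is also a transcriptional target of the pathway. It was at 3.58 and 9.32 CPM (control) against 7.06 and 11.2 CPM (ca-*Acvr1(A11)*). The groups overlapped, and the control replicates, of 7 and 21 reads, were further apart (1.17 on the log2 scale) than those of any other of the 9 genes. Between groups *Hhip* differed by 0.53 on the log2 scale (95% interval −0.27 to 1.33, adjusted p = 0.741 from limma), a value that ranged from −0.06 to 1.12 when 1 control library or the other was left out.

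None of the 3 transducers passed the threshold. *Smo*, which encodes the 7-pass membrane protein Smoothened, was at 20.4 and 12.0 CPM (control) against 16.2 and 12.6 CPM (ca-*Acvr1(A11)*). Both ca-*Acvr1(A11)* values lay between the control values. The log2 fold change was −0.12 (95% interval −0.73 to 0.48, adjusted p = 0.947 from limma), and it turned positive on leaving out control replicate 1 (0.24) or ca-*Acvr1(A11)* replicate 2 (0.04), and was −0.49 without control replicate 2.

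*Sufu*, whose product holds GLI proteins back in the cytoplasm, was at 35.8 and 40.8 CPM (control) against 32.4 and 35.1 CPM (ca-*Acvr1(A11)*). The groups did not overlap, by a margin of less than 1 CPM. *Sufu* had a log2 fold change of −0.18 (95% interval −0.59 to 0.24, adjusted p = 0.863 from limma), and with a library left out it lay between −0.27 (control replicate 1) and −0.08 (control replicate 2). *Kif7*, a kinesin that organizes the tip of the primary cilium and regulates GLI processing, was at 6.13 and 5.33 CPM (control) against 2.91 and 5.62 CPM (ca-*Acvr1(A11)*). The groups overlapped, and ca-*Acvr1(A11)* replicate 1 was low, at 7 reads against 12 in each of the others. Its log2 fold change of −0.40 (95% interval −1.23 to 0.43, adjusted p = 0.839 from limma) was −0.02 without that library and −0.78 without ca-*Acvr1(A11)* replicate 2.

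**Figure D3:**
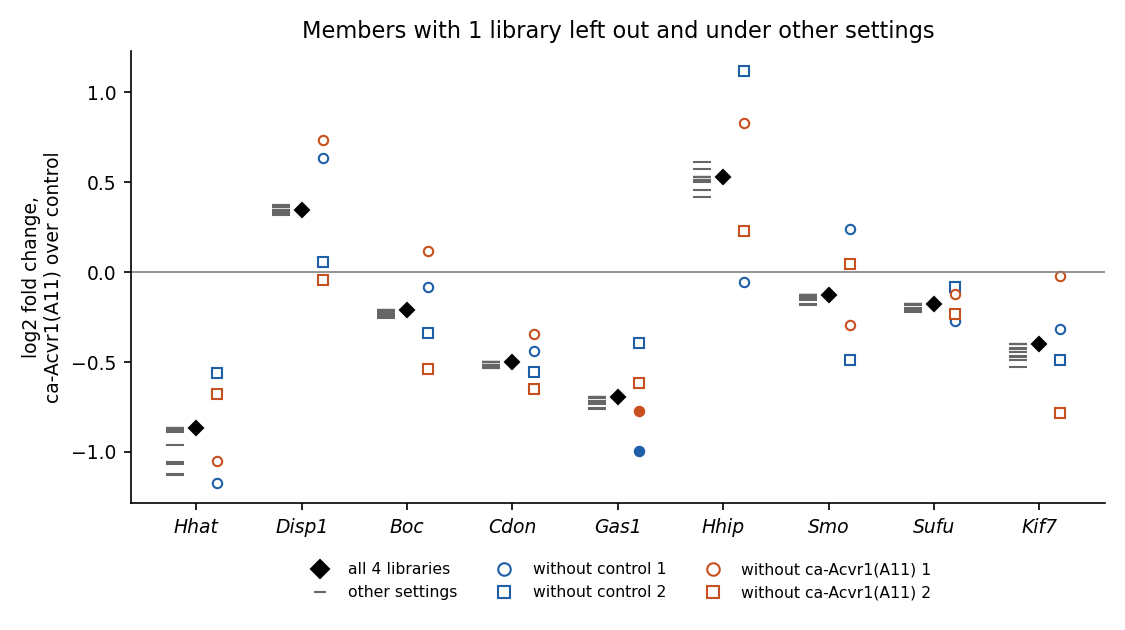
Log2 fold change of each of the 9 genes with all 4 libraries (black), under the other settings (grey dashes) and with 1 library left out (blue for a control, orange for a ca-*Acvr1(A11)* library, filled where the adjusted p was under 0.05). *Gas1*, *Cdon*, *Hhat*, *Sufu* and *Kif7* stay below 0 throughout, and *Disp1*, *Boc*, *Hhip* and *Smo* cross it when a library is left out.

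The rest of the pathway was read from a list of 48 other genes, of which 40 were listed and tested. As deposited, 3 of the 40 were called by limma, *Lrp2* higher and *Shh* and *Foxc2* lower, where the share of all genes was 0.899%. The median log2 fold change of the 40 was 0.09. Of these 40, *Shh*, *Ptch1*, *Gli1*, *Gli2* and *Gli3* have values that are not whole reads. Shifts by round amounts of CPM were searched for values that do fit whole reads, and the smallest that fit lay between 1 and 40 CPM. That the distances are round follows from this search, and the cause of the values was not tested. With the nearest whole-read values, limma called 1 of the 40, *Lrp2*. edgeR and limma-voom, on whole reads, each called 4 (*Lrp2* higher, *Foxf1*, *Foxd1* and *Foxc2* lower), and DESeq2 called 0. The shares of all genes called by these tools were 1.14%, 1.00% and 0.265%.

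Among the ligands *Shh* was listed, while *Ihh* and *Dhh* have no values. The deposited values of *Shh* were 56.4 and 47.8 CPM (control) against 32.8 and 23.9 CPM (ca-*Acvr1(A11)*; log2 fold change −0.87, adjusted p = 0.0383 from limma). The deposited control values lay 40 and 30 CPM above the nearest whole-read values, which were 16.4 and 17.8 CPM, under both ca-*Acvr1(A11)* values. With these the log2 fold change was 0.68 (95% interval 0.18 to 1.19, adjusted p = 0.305 from limma). The direction of *Shh* thus depended on which values were used, the adjusted p ran from 0.00267 to 1.00 over 17 alternatives, and no direction is drawn for it here. Left out singly, control replicate 1 and ca-*Acvr1(A11)* replicate 2 each also ended the call of the deposited values (adjusted p = 0.0710 and 0.487 from limma).

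Of the receptors, *Ptch1* had deposited values of 3.58 and 2.66 CPM (control) against 4.49 and 3.94 CPM (ca-*Acvr1(A11)*), and whole-read values of 2.49 and 0.936 CPM for the latter pair. The log2 fold change was 0.35 as deposited (adjusted p = 0.871 from limma) and −0.66 with whole reads (0.743). *Lrp2*, a large endocytic receptor that binds SHH in the forebrain, was at 27.1 and 14.7 CPM (control) against 48.2 and 41.2 CPM (ca-*Acvr1(A11)*), all whole reads. Both ca-*Acvr1(A11)* values lay above both controls, with a log2 fold change of 1.12 (95% interval 0.62 to 1.62, adjusted p = 0.0174 from limma). The call was lost on leaving out control replicate 2 (log2 fold change 0.70, adjusted p = 0.229) or ca-*Acvr1(A11)* replicate 1 (1.01, adjusted p = 0.0904), without the trend (adjusted p = 0.473 from limma) and with DESeq2 (0.403), and the adjusted p ran from 1.16e-06 to 0.473. *Gpc3*, a glypican that binds Hedgehog ligands and competes with Patched, was at 368 and 434 CPM (control) against 306.0 and 265 CPM (ca-*Acvr1(A11)*), and missed the threshold (log2 fold change −0.49, limma adjusted p = 0.128). Without control replicate 1 *Gpc3* passed it (log2 fold change −0.61, limma adjusted p = 0.00310), and over the alternatives its adjusted p reached 0.793.

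The GLI transcription factors carried the same kind of values. *Gli1*, a target as well as an effector, was at 2.56 and 2.66 CPM in control and was deposited at 4.25 and 2.87 CPM in ca-*Acvr1(A11)* libraries, with whole-read values of 1.25 and 1.87 CPM. For *Gli2*, the main activator, control values of 42.9 and 47.9 CPM stood against 56.1 and 60.5 CPM as deposited and 46.1 and 50.5 CPM in whole reads. For *Gli3*, the main repressor, 102.7 and 99.9 CPM stood against 127.5 and 131.7 CPM as deposited and 107.5 and 91.7 CPM in whole reads. As deposited, 3 of 3 had a log2 fold change above 0 (0.32, 0.35 and 0.35) and none passed the threshold in limma, with 1, *Gli3*, at an unadjusted p under 0.05. With whole reads the log2 fold changes were −0.51, 0.09 and −0.03, the groups of *Gli2* and *Gli3* overlapped, and 0 of the 3 were called by limma, edgeR, limma-voom or DESeq2.

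**Figure D4:**
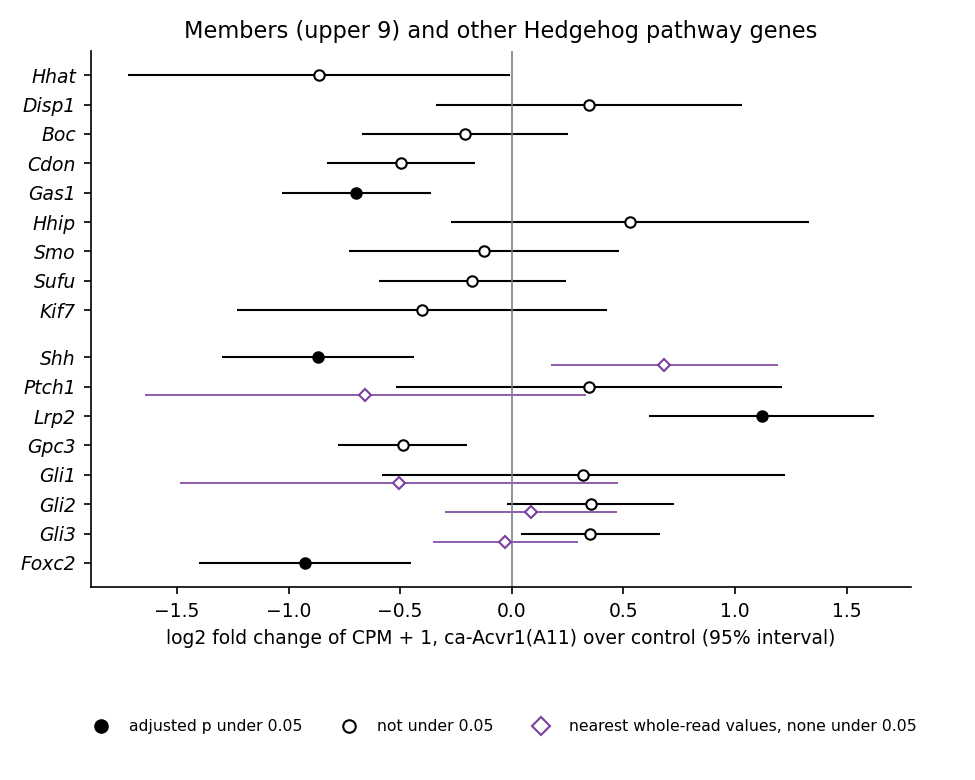
Log2 fold change (ca-*Acvr1(A11)* over control, of CPM + 1) with its 95% interval for the 9 genes (upper block) and for the ligands, receptors, GLI factors and called targets (lower block), filled where the adjusted p from limma was under 0.05. Purple diamonds give the same estimate from the nearest whole-read values, which moves *Shh* from −0.87 to 0.68.

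Of the 13 targets other than *Hhip*, 12 were tested, among them *Gli1* and *Ptch1*. As deposited, limma called 1, *Foxc2*, a forkhead factor of facial mesenchyme (0.899% of all genes). edgeR and limma-voom each called 3, *Foxf1*, *Foxd1* and *Foxc2*, all lower (1.14% and 1.00% of all genes), and DESeq2 called 0 (0.265%). The median log2 fold change of the targets was −0.28 as deposited and −0.49 with whole-read values in limma. It was −0.68 with edgeR, −0.65 with limma-voom and −0.67 with DESeq2. *Foxc2* was at 34.7 and 43.5 CPM (control) against 17.0 and 23.4 CPM (ca-*Acvr1(A11)*), without overlap (log2 fold change −0.93, adjusted p = 0.0497 from limma). That p lay just under the threshold and was above it under 8 of 17 alternatives, including those leaving out control replicate 2 (0.307) or ca-*Acvr1(A11)* replicate 1 (0.413), with a range from 0.00444 to 0.653. Of the 21 regulators of SMO, SUFU and GLI tested, 0 were called by limma, edgeR, limma-voom or DESeq2, beside the small shares of all genes given above. Their median log2 fold change was 0.08, and 0 had an unadjusted p under 0.05 in limma. The shares of all genes at that unadjusted p were 4.12% lower and 5.42% higher. Of the 4 genes of ligand release and spread, *Scube1* and *Scube3* were tested, and 0 were called by any of the 4 tools or had an unadjusted p under 0.05 in limma.

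Markers of the cell types that NP tissue can hold were read beside these genes. Of 14 markers of cranial mesenchyme, all tested, limma called 11 lower and 0 higher and DESeq2 called 7, with a median log2 fold change of −1.09, and their summed level was 2136 and 2472 CPM (control) against 1198 and 1187 CPM (ca-*Acvr1(A11)*). *Col1a2*, the most abundant, was at 540.2 and 617 CPM (control) against 246 and 240.1 CPM (ca-*Acvr1(A11)*; log2 fold change −1.25, limma adjusted p = 1.75e-06), and *Prrx1* fell by 1.19 on the log2 scale (adjusted p = 1.5e-05). *Pdgfra*, which has 2 values off whole reads, fell by 2.60 as deposited and by 1.45 with whole-read values (adjusted p = 6.81e-09 and 4.43e-05 from limma). The 3 calls were lost under 1 of 17 alternatives, without the trend, where the highest adjusted p among them was 0.373. *Gas1* was thus lower in the same libraries in which mesenchyme markers were lower, and the part of tissue makeup in its change was not tested.

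Of 13 ectoderm markers tested (*Esrp2* is not listed) 2 were called higher and 0 lower by limma, DESeq2 called 0, the median log2 fold change was 0.52, and the list summed to 265 and 258 CPM (control) against 424 and 391 CPM (ca-*Acvr1(A11)*). *Cdh1*, the most abundant, and *Epcam* rose by 0.78 and 0.72 on the log2 scale (adjusted p = 0.0145 and 0.0264 from limma), and each call was lost under 4 of 17 alternatives, among them those without ca-*Acvr1(A11)* replicate 1 (adjusted p = 0.102 and 0.202), *Cdh1* also without control replicate 2 (0.0924) and *Epcam* without ca-*Acvr1(A11)* replicate 2 (0.0832). The highest adjusted p for either was 0.448.

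Of 14 neural and olfactory markers 1 was called, *Six3*, higher by 0.71 (adjusted p = 0.0278 from limma), and the list had a median of 0.45 and summed to 2127 and 1766 CPM (control) against 2682 and 2707 CPM (ca-*Acvr1(A11)*). The call of *Six3* was lost under 5 of 17 alternatives, including those leaving out control replicate 2 (log2 fold change 0.35, adjusted p = 0.372) or ca-*Acvr1(A11)* replicate 1 (0.0518), with an adjusted p of up to 1.00. *Sox2*, the most abundant of these, was at 455 and 429 CPM against 616 and 633 CPM and missed the threshold (adjusted p = 0.0803 from limma), but passed it without control replicate 1 (0.00678), with a highest value of 0.571. Of 7 macrophage markers tested 1 was called, *Cx3cr1*, the most abundant, at 23.0 and 19.5 CPM (control) against 39.0 and 51.0 CPM (ca-*Acvr1(A11)*; log2 fold change 1.04, adjusted p = 0.0143 from limma). That call was lost under 3 of 17 alternatives, including the one without ca-*Acvr1(A11)* replicate 2 (0.266), with a highest adjusted p of 0.402. The macrophage list had a median of 0.60 and summed to 42.9 and 41.3 CPM against 66.4 and 103 CPM, and *Fcgr1* and *Adgre1* are not listed.

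In the lists for endothelium, erythroid cells and muscle 0 genes were called by limma, edgeR, limma-voom or DESeq2, and 0 had an unadjusted p under 0.05 in limma. The 8 endothelial markers, led by *Kdr*, summed to 177 and 187 CPM against 183 and 172 CPM, with a median of −0.10. The 5 erythroid markers tested, led by *Hbb-y*, summed to 7007 and 8468 CPM against 6694 and 7186 CPM, with a median of −0.15, and *Hba-a1* and *Hbb-bt* are not listed. The 2 muscle markers tested, led by *Myf5*, summed to 3.07 and 3.55 CPM against 4.57 and 4.21 CPM, with a median of 0.29, and *Myod1*, *Myog* and *Myl1* are not listed. No listed marker was at 0 in all 4 libraries.

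**Figure D5:**
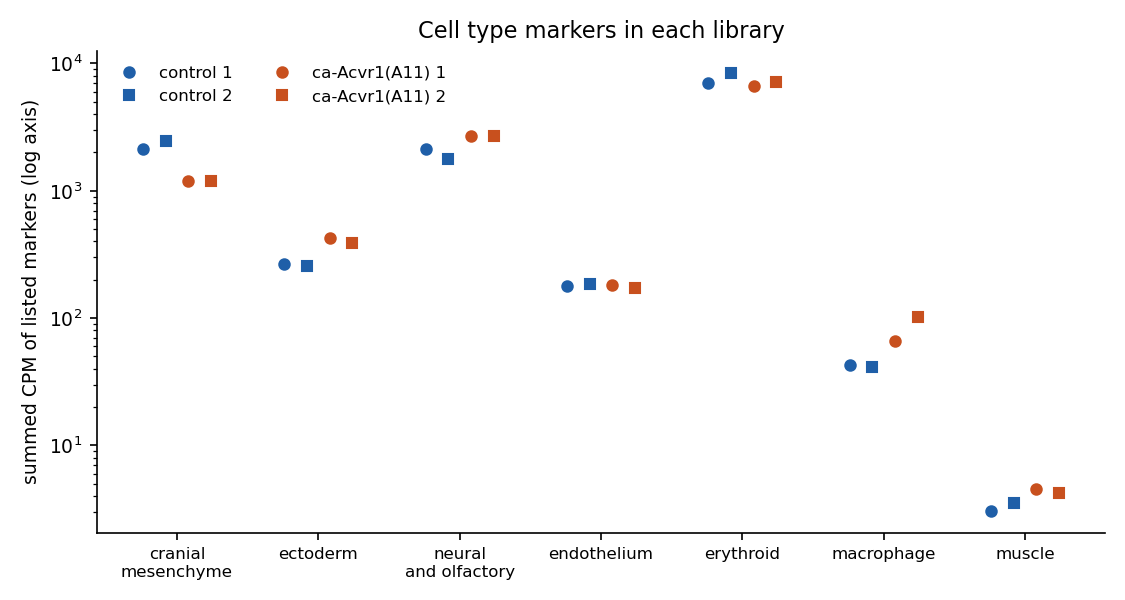
Summed CPM (log axis) of the listed markers of each cell type in the 2 control (blue) and 2 ca-*Acvr1(A11)* (orange) libraries. The cranial mesenchyme list lies at 2136 and 2472 CPM for control against 1198 and 1187 CPM for ca-*Acvr1(A11)*, and the ectoderm, neural and macrophage lists are higher in both ca-*Acvr1(A11)* libraries.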

How the data were processed

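Groups of 2 libraries each follow the titles. The authors made QuantSeq 3′ libraries and deposited CPM values (reads scaled to library size) for 13577 genes. Their processing notes name STAR, featureCounts 1.6.4, DESeq2 and mm10; the annotation is not given in the sources used here. Of 54308 values, 99.921% were whole reads within 0.02 reads. The other 43, in 22 genes, were kept as deposited in the main test. For 42 of them a value with the same decimals within 500 CPM gave whole reads, used in an alternative and in the count tests. Only shifts by round amounts of CPM were searched, and the smallest that fit was taken as the nearest.

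Fold changes of log2(CPM + 1) were tested with limma 3.58.1 (R 4.3.3) with a mean-variance trend for the 12462 genes above a mean of 1 CPM, with Benjamini-Hochberg adjustment over all of them. On this scale the change of low genes is understated. Alternatives were other pseudocounts, filters and scalings, no trend, edgeR 4.0.16, DESeq2 1.42.0, limma-voom, a replicate block and each library left out. Scripts were tested on simulated data. Coordinates are from GENCODE (GRCm38) and promoters from RefSeq.

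The 9 members and all lists were chosen with earlier results of these data known. Named are the 9 members, other pathway genes that are called or are ligands, receptors or GLI factors, *Acvr1*, and of each marker list at most 3 called genes by smallest p and the most abundant. A further marker list is not reported here. *Foxf1*, *Foxd1*, *Scube1* and *Scube3*, outside this rule, were named after their values were seen.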

Additional observations from a re-analysis of the deposited data

How the results depend on the processing

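Of the 488 values of named genes under 17 alternatives, 421 kept their direction and side of the threshold, 40 lost the call, 4 gained it and 23 changed sign. With the nearest whole-read values the log2 fold changes of *Shh*, *Ptch1*, *Gli1* and *Gli3* were 0.68, −0.66, −0.51 and −0.028; with edgeR 0.70, −0.83, −0.77 and −0.052; with DESeq2 0.71, −0.87, −0.78 and −0.048; and with limma-voom 0.68, −0.90, −0.75 and −0.058. These 4 settings replace the values that are not whole reads. The members called, 1 in the main setting, were 0 with a pseudocount of 0.1, without the trend and with DESeq2. The other pathway genes called, 3 in the main setting, were 1 with a pseudocount of 0.1, 5 with TMM scaling, 0 without the trend, 0 with DESeq2 and 1 with whole-read values. All genes called, 112 in the main setting, were 0 without the trend in limma (594 higher and 432 lower at an unadjusted p under 0.05) and 33 with DESeq2. The causes were not tested. With a mean above 5 CPM, *Hhat* and *Kif7* were not tested.

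The replicate numbers are not known to pair libraries; same-numbered libraries deviated with a correlation of 0.0671 across genes. The replicate block called 229 genes, 6 other pathway genes and 1 member. Under it *Gpc3* (adjusted p = 0.0466 from limma) and *Sox2* (0.0431) passed the threshold, as did *Foxf1* and *Foxd1*, and it changed no other call of a gene named in the text.

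With each library left out in turn, an arm holds 1 library, assumed to vary like the others. The members called ranged from 0 to 1, all genes called from 94 to 462, other pathway genes called from 1 to 7, and the median of the members from −0.54 to −0.12. The log2 fold changes ranged from −0.54 to 0.12 for *Boc*, −0.043 to 0.74 for *Disp1*, −0.056 to 1.12 for *Hhip*, −0.49 to 0.24 for *Smo*, −0.77 to 0.11 for *Acvr1* and −0.20 to 0.030 for *Kdr*. At this depth *Hhat*, *Kif7* and *Hhip* rest on few reads, and changes of the size of counting error were not detectable.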
